A study of Mus musculus with 2 samples.

Results

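The annexins, S100 proteins and galectins described here are 10 genes: the annexins Anxa1, Anxa2, Anxa3 and Anxa5, the S100 genes S100a4, S100a6, S100a10 and S100a11, and the galectins Lgals1 and Lgals3. They are read by 12 of the 55681 mouse probes, and by 10 of the 34650 gene names, on each array. These members were chosen by their measured values, since members of these families that were brighter in the ELA-EpiSC array than in the EpiSC array were picked from the same comparison. Their direction is therefore given by the choice, and their values are a description.

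Both groups came from E14Tg2A, an embryonic stem (ES) cell line of strain 129/Ola mice, and both were grown on gelatin in chemically defined medium that held FGF2 at 12 ng/mL and Activin A at 20 ng/mL. EpiSC, epiblast stem cells, were obtained by giving these factors to ES cells directly, and ELA-EpiSC by giving them to cells dissociated from Epiblast-Like Aggregates, the floating clusters that form after LIF and serum are withdrawn. Each group is 1 array, hybridized with RNA pooled from 3 experiments, so no difference below has a replicate check and no p-value can be given. For EpiSC the source field speaks of an Argonaute precipitate from undifferentiated cells, and for ELA-EpiSC of undifferentiated total RNA, whereas titles, descriptions and molecule fields give total RNA of EpiSC and ELA-EpiSC. The titles were followed, and what this conflict means for the values cannot be told apart from the groups.

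Annexins bind acidic phospholipids of membranes when calcium is present, and serve in membrane organization, vesicle traffic and repair. S100 proteins are small calcium sensors of the EF-hand type that pair up and dock on target proteins, several annexins among them: S100a10 binds Anxa2, and S100a11 binds Anxa1. Galectins are lectins without a signal peptide that bind beta-galactosides on glycoproteins inside and outside the cell. Many genes of these families are abundant in adherent cells such as fibroblasts and epithelia.

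The sequence just before the annotated start was in the RefSeq promoter table (assembly GRCm38.p6) for 7 of the 10 members, and not for Anxa3, S100a10 and Lgals1. The windows of Anxa1, Anxa2, S100a4, S100a6 and S100a11 are shown because they cover the annexin and S100 partners and the neighbouring genes S100a4 and S100a6. Each line gives the 250 bases upstream of the start, 5′ to 3′ on the gene's strand, and capitals mark TGANTCA, the letters of an AP-1 site, and TATAAA, those of a TATA box.
Anxa1: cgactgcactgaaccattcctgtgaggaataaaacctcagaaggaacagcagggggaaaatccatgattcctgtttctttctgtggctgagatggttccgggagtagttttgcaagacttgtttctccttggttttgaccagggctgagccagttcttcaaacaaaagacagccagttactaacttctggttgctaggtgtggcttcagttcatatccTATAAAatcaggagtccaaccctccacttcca
Anxa2: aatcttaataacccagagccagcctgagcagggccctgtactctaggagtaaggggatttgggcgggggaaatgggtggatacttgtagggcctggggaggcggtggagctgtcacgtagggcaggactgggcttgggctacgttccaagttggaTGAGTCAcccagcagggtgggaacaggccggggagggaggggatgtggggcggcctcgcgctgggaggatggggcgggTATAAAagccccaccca
S100a4: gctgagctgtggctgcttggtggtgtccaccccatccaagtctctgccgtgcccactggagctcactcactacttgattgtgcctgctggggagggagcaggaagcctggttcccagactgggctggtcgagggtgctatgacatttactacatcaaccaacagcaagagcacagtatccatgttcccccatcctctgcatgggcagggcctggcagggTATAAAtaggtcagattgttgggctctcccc
S100a6: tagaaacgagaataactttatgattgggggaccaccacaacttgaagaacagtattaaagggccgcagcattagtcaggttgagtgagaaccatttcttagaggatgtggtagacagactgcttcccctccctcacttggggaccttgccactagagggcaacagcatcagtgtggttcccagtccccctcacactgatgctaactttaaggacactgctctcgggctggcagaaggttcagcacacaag
S100a11: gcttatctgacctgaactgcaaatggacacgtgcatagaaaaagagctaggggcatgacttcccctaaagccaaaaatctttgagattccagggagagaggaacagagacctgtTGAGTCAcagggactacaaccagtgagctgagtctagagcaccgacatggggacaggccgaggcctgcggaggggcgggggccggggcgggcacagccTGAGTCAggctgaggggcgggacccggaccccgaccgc

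These windows lie at chr19:20390672-20390921 on the minus strand for Anxa1, and on the plus strand at chr9:69453433-69453682 for Anxa2, chr3:90603520-90603769 for S100a4, chr3:90612644-90612893 for S100a6 and chr3:93520246-93520495 for S100a11. The letters TGANTCA, searched on both strands, were in 2 of the 7 windows, once in Anxa2 and 2 times in S100a11, against 6.75% of all 32851 windows. The letters TATAAA, also searched on both strands, were in 3 of the 7 (Anxa1, Anxa2 and S100a4) against 12.4% of all windows, and each lay within 32 bases of the start. The GC box letters GGGCGG were in 3 of the 7 (Anxa2, S100a11 and Lgals3) against 32.7%, and the letters GGAATG of a TEAD site in 1 of the 7 (Anxa1) against 12.6%. None of these 4 motifs was found in the windows of S100a6 and Anxa5. These matches describe letters in a window and not sites in use.

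Levels below are log2 of background-corrected, quantile-normalized spot intensity, and a difference is ELA-EpiSC minus EpiSC on that log2 scale. Levels of different genes were read by different probes and are not compared. Probes well above background made up 65.9% of the total for EpiSC and 65.0% for ELA-EpiSC, 0 spots were saturated, and all 12 member probes were well above background on both with 0 flagged spots. Over 312 probes printed 10 times, the spot noise of a difference had a root mean square of 0.10, and for the 234 bright ones it was at most 0.18. This covers neither labelling nor culture. The 8 detected probes for spike-ins, control RNA added for labelling, were all lower on the ELA-EpiSC array, by 0.54 on average; setting them equal moved the median of all genes up by 0.54, so differences here are relative to the other genes on the array. In bulk RNA, more cells of a kind and more RNA per cell cannot be told apart.

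All 4 annexins were brighter in ELA-EpiSC, by 3.17-fold to 7.25-fold over their 5 probes. Anxa1, which inhibits phospholipase A2 and dampens inflammation, was read by 2 probes of chromosome 19 (mm9, minus strand), at 20447938 to 20447997 and 1.78 kb away at 20449722 to 20449781. The brighter probe read 9.03 in EpiSC and 11.75 in ELA-EpiSC, from scanned signals of 445 and 3781 intensity units over local backgrounds of 28 and 29. The other probe read 8.10 and 10.95. The differences were 2.72 and 2.86, or 6.57-fold and 7.25-fold, so the probes gave close sizes. Anxa3, an annexin found in neutrophils among other cells, went from 9.89 in EpiSC to 12.71 in ELA-EpiSC, which is 2.83 or 7.09-fold more, on a probe of chromosome 5 at 97253925 to 97253984.

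Anxa2 and Anxa5 also read higher in ELA-EpiSC, by smaller differences than Anxa1 and Anxa3. Anxa2, which links actin to membranes and forms a tetramer with S100a10, read 13.54 in EpiSC and 15.20 in ELA-EpiSC, from scanned signals of 10979 and 37294 units. The difference was 1.66, or 3.17-fold. Its probe lies on chromosome 9 at 69339532 to 69339591. Anxa5, known as the probe for exposed phosphatidylserine on dying cells, read 12.44 and 14.14, from scanned signals of 5021 and 19232 units on a probe of chromosome 3 at 36348065 to 36348124. The difference was 1.70, or 3.26-fold. On the brightest probe of each gene, the 4 annexin differences were 16.3 to 27.7 times the spot noise.

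**Figure D1:**
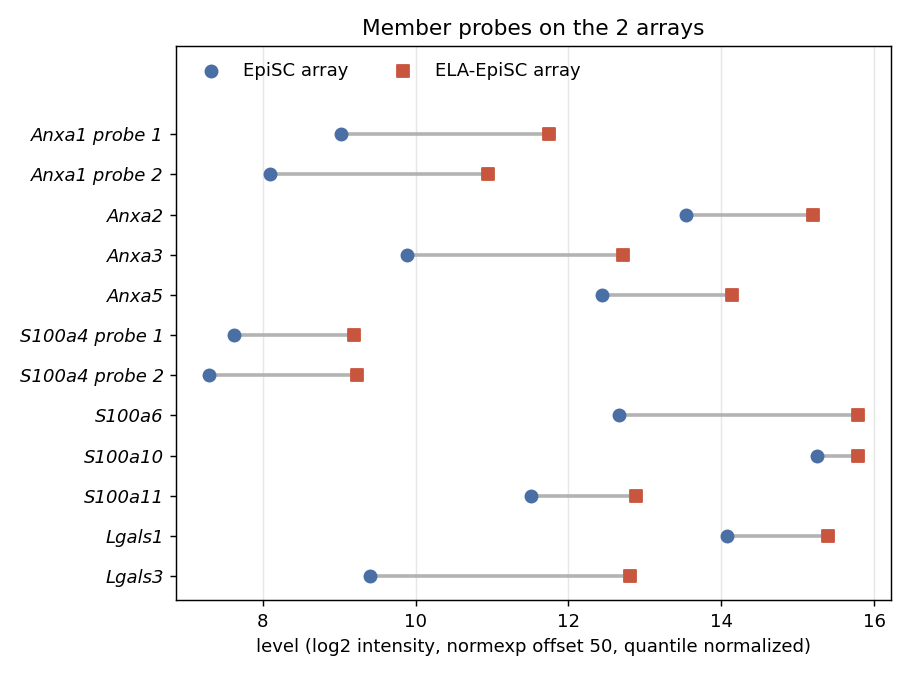
Level of each of the 12 member probes (log2 intensity, horizontal axis) on the EpiSC array (circles) and the ELA-EpiSC array (squares), 1 array each and so without error bars. Every probe is brighter on the ELA-EpiSC array, with the shortest line for S100a10 (15.25 to 15.79) and the longest for Lgals3 (9.40 to 12.80).

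Of the S100 genes, S100a6 had the largest difference and S100a10 the smallest. S100a6, or calcyclin, which binds the calcyclin-binding protein Cacybp and several annexins, read 12.67 in EpiSC and 15.79 in ELA-EpiSC, from scanned signals of 5918 and 56678 units. The difference was 3.12, or 8.72-fold. S100a4, a partner of non-muscle myosin that is widely used as a fibroblast marker, was read by 2 probes that lie 0.174 kb apart. The brighter probe read 7.63 and 9.19, from scanned signals of 150 and 608 units, and the other 7.30 and 9.23. Their differences were 1.57 and 1.94, or 2.96-fold and 3.82-fold, so the size for S100a4 depends on the probe, and both are in the same direction.

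S100a11, the partner of Anxa1, read 11.52 in EpiSC and 12.88 in ELA-EpiSC, from scanned signals of 2615 and 8164 units. The difference was 1.37, or 2.58-fold. S100a10, the partner of Anxa2 and an S100 protein that has lost calcium binding, read 15.25 and 15.79, from scanned signals of 39140 and 56437 units. The difference was 0.53, or 1.45-fold, which is 5.22 times the spot noise and the only member difference not past 1. Beside its partner Anxa2, with 1.66, S100a10 thus differed less; the probes of the partners Anxa1 and S100a11 differed by 2.72 and 1.37. Across 14 other ways of processing, S100a10 lay between 0.23 and 1.07, and it passed 1 only where spike-ins were set equal.

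Lgals3, or galectin-3, the chimera-type galectin of macrophages and epithelia, had the largest difference of all members. It read 9.40 in EpiSC and 12.80 in ELA-EpiSC, from scanned signals of 582 and 7758 units. The difference was 3.40, or 10.6-fold, on chromosome 14 at 48005414 to 48005473. Lgals1, or galectin-1, a dimer-forming galectin of connective tissue and muscle, read 14.07 and 15.39, from scanned signals of 16158 and 43225 units. Its difference was 1.32, or 2.5-fold, on chromosome 15 at 78760566 to 78760625. The galectins thus span the range from 13 to 33.4 times the spot noise.

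Of all genes, 16649 reached a mean log2 of 7.5, and of these 756 (4.54%) were higher in ELA-EpiSC by more than 1 and 742 (4.46%) higher in EpiSC by more than 1. Of the 10 members, 9 were past 1 and 0 past it in the other direction, which the choice of members fixes. The median member difference was 1.69, beside 0.00 over all genes, whose central 95% ran from -1.32 to 1.37. In favour of ELA-EpiSC 67 genes (0.402%) lay past 2.5, against 108 in favour of EpiSC, and 4 members were among the 67: Lgals3, S100a6, Anxa3 and Anxa1. Ranked among genes higher in ELA-EpiSC alone, these members stood at 12, 17, 40 and 46, and Anxa5, Anxa2 and S100a4 at 237, 259 and 298. The members nearest to the limit of 1 were Lgals1 (1.32, rank 452) and S100a11 (1.37, rank 420) above it and S100a10 (0.53, rank 2099) below it. The scanned signals before any correction differed by ratios of 1.44 to 13.3 for the member probes, against a median ratio of 1.12 over all detected probes.

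**Figure D2:**
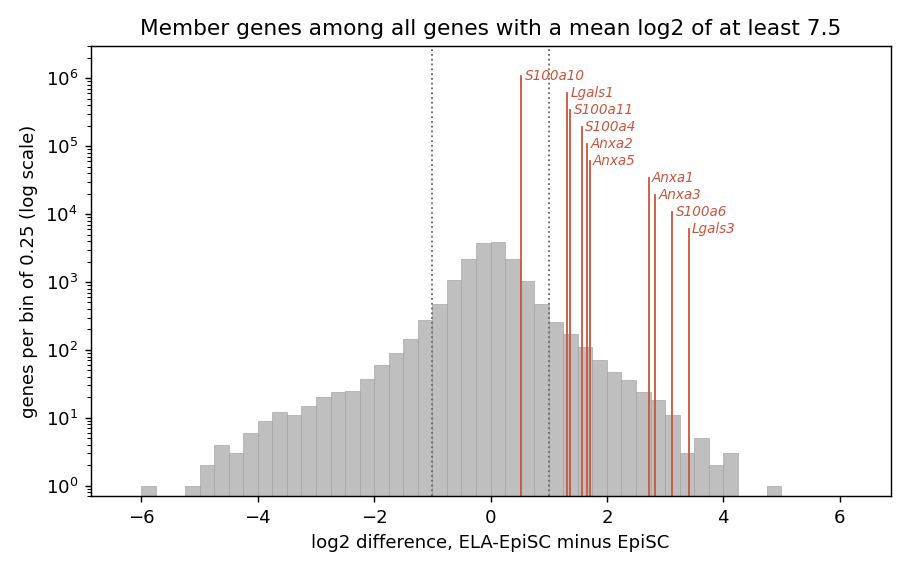
Number of genes (log axis) by log2 difference, ELA-EpiSC minus EpiSC, in bins of 0.25 for the 16649 genes whose mean log2 reached 7.5, with a red line at each member and dotted lines at -1 and 1. Members were picked for being higher in ELA-EpiSC, and 9 of 10 lie past 1 while S100a10 lies at 0.53.

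Other genes of these families lay on both sides of 0. A list of 28 other annexin, S100 and galectin genes on the array was read, which left out S100a2. Of these 28, 22 were well above background on at least 1 array. A mean log2 of at least 7.5 was reached by 12, of which 3 were past 1 in ELA-EpiSC and 2 past 1 in EpiSC. Over all genes these shares were 4.54% and 4.46%. Their median difference was -0.23, and 5 of the 12 were higher in ELA-EpiSC. The members were taken out of these families by direction, so the remaining genes are biased the other way, and the 2 medians are no comparison of groups.

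Among other annexins, 5 of 8 had a mean log2 of at least 7.5. Anxa6, the annexin with the longest core of repeats, read 12.65 in EpiSC and 13.81 in ELA-EpiSC, or 1.16 more. Anxa9, an annexin with impaired calcium binding, ran the other way, from 9.85 to 7.81, a difference of -2.05. Anxa11, which carries RNA granules on lysosomes and binds S100a6, differed by 0.81 on its brighter probe and 0.12 on the other. Anxa7 differed by 0.41, and Anxa4 by -0.29, which became 0.25 with spike-ins set equal.

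Among the 12 listed other S100 genes, 4 had a mean log2 of at least 7.5. S100a2, left out of the list, read 7.19 in EpiSC and 7.14 in ELA-EpiSC, below that minimum, a difference of -0.04. S100a7a, S100a8, S100a9, S100b and S100z were not well above background on either array. S100a8 and S100a9 form calprotectin of neutrophils and monocytes, and S100b marks glia. S100a3, a cysteine-rich protein of hair, read 7.60 in EpiSC and 9.26 in ELA-EpiSC, or 1.66 more. S100a1, the calcium sensor of heart and skeletal muscle, read 9.99 and 8.62, a difference of -1.38, and its other probe differed by -1.32. S100a16 differed by -0.72, and S100a13 by -0.18, which changed sign to 0.05 with scaling to the median and to 0.36 with spike-ins set equal.

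S100g, the vitamin D-dependent calbindin of the gut, was well above background in EpiSC alone on its brighter probe. On that probe it was at least 2.54-fold higher in EpiSC in the quantile-normalized values, and less with spike-ins set equal. The brighter probe differed by -1.35, or -0.81 with spike-ins set equal, and the other probe by -0.94, so the size depends on probe and scaling. For the bound of 2.54-fold the ELA-EpiSC side was taken as its own reading or, if higher, as the lowest signal detected on that array (6.11). Its own reading, 6.14, was the higher. Of 8 other galectins 3 had a mean log2 of at least 7.5. Lgals8, which binds glycans exposed on damaged vesicles, read 7.37 in EpiSC and 8.67 in ELA-EpiSC, or 1.31 more. Lgals9 differed by -0.81 and Lgalsl by -0.42, the latter 0.12 with spike-ins set equal, and Lgals12 did not stand well above background in either group.

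**Figure D3:**
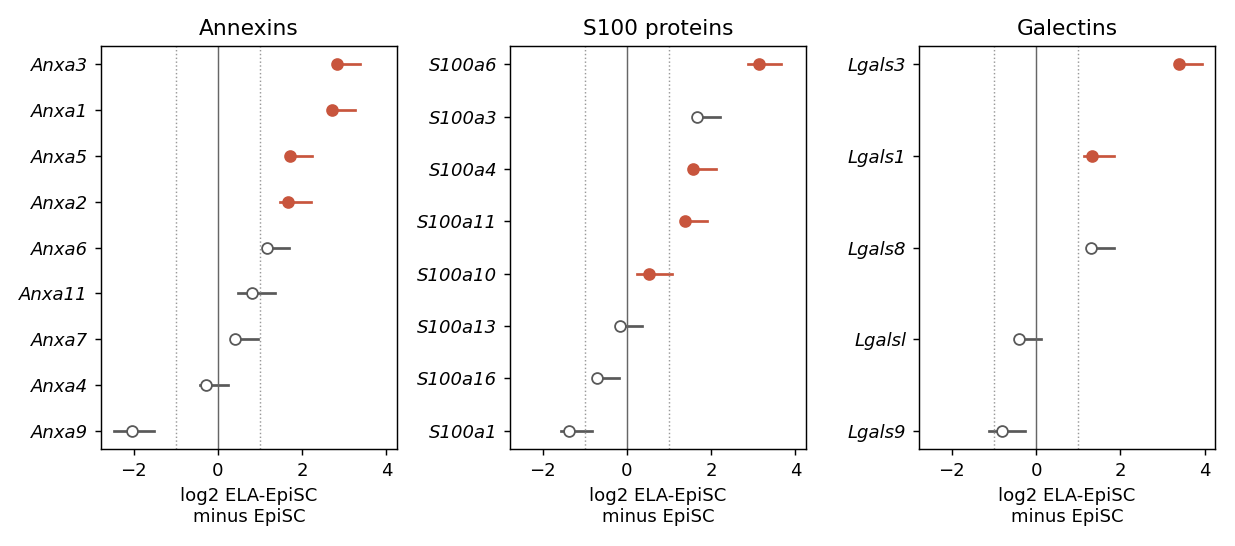
Log2 difference, ELA-EpiSC minus EpiSC, of members and of other family genes whose mean log2 reached 7.5, grouped as annexins, S100 proteins and galectins; filled points are members, open points other genes, horizontal lines the range over 14 other ways of processing, and dotted lines -1 and 1. Members, picked for this direction, lie from 0.53 to 3.40, and other genes lie from -2.05 (Anxa9) to 1.66 (S100a3); Anxa4, S100a13 and Lgalsl are below 0 here and above 0 with spike-ins set equal.

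All 4 S100 members lie on mouse chromosome 3 in the S100 gene cluster. The probe positions (mm9) are 90409734 to 90409793 and 90409908 to 90409967 for S100a4, 90418160 to 90418219 for S100a6, 93330022 to 93330081 for S100a11 and 93368437 to 93368496 for S100a10. S100a4 and S100a6 are 8.43 kb apart, S100a11 and S100a10 38.4 kb, and the pairs are 2912 kb from each other. Neighbours in the order of the chromosome did not share 1 size of difference: S100a4 differed by 1.57 and S100a6 by 3.12, S100a11 by 1.37 and S100a10 by 0.53.

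Within 500 kb of S100a4 and S100a6, 17 other gene names had a mean log2 of at least 7.5, with a median difference of -0.09 and a range of -1.38 to 1.66. Only S100a3 was past 1 in ELA-EpiSC, and S100a1 (-1.38) and Creb3l4, a transcription factor gene (-1.21), were past 1 in EpiSC. The probe of S100a3 lies 11.8 kb from that of S100a6, next to S100a4. The dim S100a5, at 2.52 kb from S100a6, differed by -0.04, which became 0.49 with spike-ins set equal. Around S100a10 and S100a11, 8 other gene names reached that minimum, 0 were past 1 in either direction, and they ran from -0.95 to 0.12 with a median of 0.01. Only Gm4858 among these 8 is a gene symbol, and the rest are probe names or chromosome intervals, so few known genes were read there. Tchh, below the minimum with a mean of 7.19, was brighter by 1.18 on the ELA-EpiSC array (7.78 against 6.60). Its probe lies at 93252853 to 93252912.

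**Figure D4:**
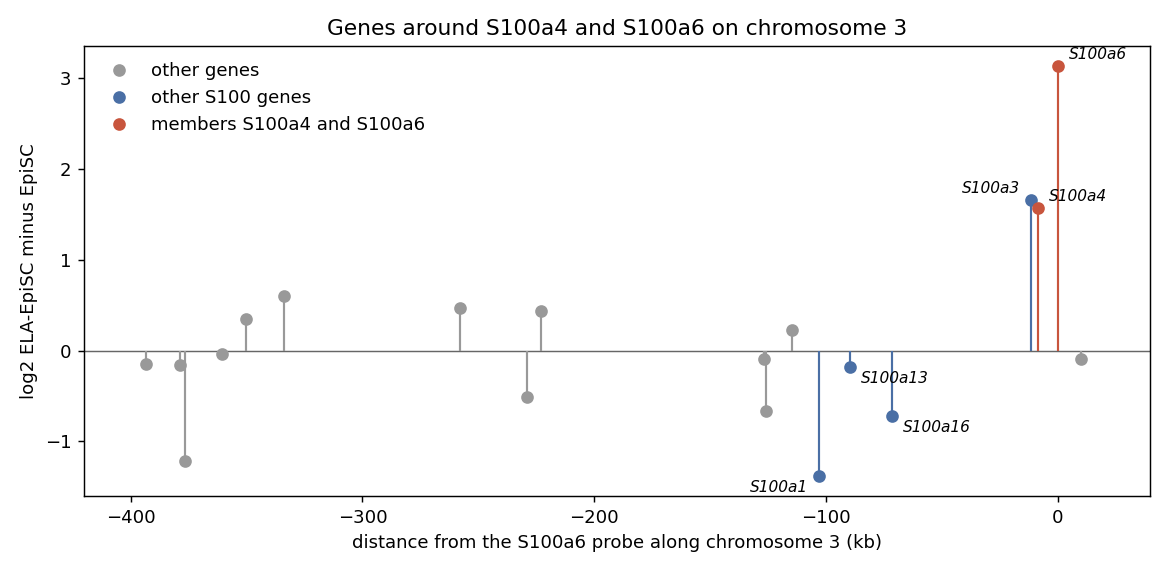
Log2 difference, ELA-EpiSC minus EpiSC, of genes near S100a4 and S100a6 whose mean log2 reached 7.5, by the distance of their probe from that of S100a6 (kb, mm9), with a vertical line from 0 to each point. S100a3, S100a4 and S100a6, within 11.8 kb, lie at 1.66, 1.57 and 3.12, and S100a16, S100a13 and S100a1, 71.6 to 103 kb away, at -0.72, -0.18 and -1.38; S100a13 is above 0 with scaling to the median or to spike-ins.

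Of 28 genes for partners, targets and receptors of these proteins, 18 had a mean log2 of at least 7.5, with a median of -0.04 and 9 higher in ELA-EpiSC. Past 1 in ELA-EpiSC were 2 (11.1%), beside 4.54% of all genes. Ahnak, a giant scaffold protein that Anxa2 and S100a10 hold at the membrane, read 10.84 in EpiSC and 13.77 in ELA-EpiSC, but its 4 probes differed by anything from 0.14 to 2.93. Dysf, or dysferlin, which acts with annexins in membrane repair, read 10.02 and 11.80, a difference of 1.78. Pla2g4a, the cytosolic phospholipase A2 that Anxa1 and S100a10 inhibit, read 8.67 and 7.54, a difference of -1.13, and no other gene of this list was past 1 in EpiSC.

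Cacybp, the binding protein of S100a6, read 15.57 in EpiSC and 15.18 in ELA-EpiSC, with a difference of -0.39, which became 0.14 with spike-ins set equal. Myh9, the myosin heavy chain that S100a4 binds, differed by 0.66 on its brighter probe and 0.04 on the other. Pdcd6, or ALG-2, a calcium sensor that binds annexins, differed by 0.55. Of 18 genes for other EF-hand proteins, the calcium-binding fold of the S100 family, 13 reached the minimum and 0 were past 1 in either direction, from -0.91 to 0.57 with a median of -0.16.

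Several members are used as markers of other cells, S100a4 of fibroblasts and Lgals3 of macrophages, so the markers of those cells were read beside them. Of 8 fibroblast markers 7 were detected, all but Lum, with a mean level of 8.28 in EpiSC and 9.38 in ELA-EpiSC, and of 5 at the minimum 2 were past 1: Col1a1 (7.07 to 10.79, a difference of 3.72) and Pdgfra (7.98 to 9.75, a difference of 1.77). Over all genes at the minimum, 4.54% were past 1 in this direction. Col3a1, another collagen gene, read 6.52 and 8.39, a difference of 1.88 at a mean below the minimum. The collagen gene Col1a2 differed by 0.08, the surface marker Thy1 by 0.05 and Pdgfrb by 0.50. Dcn ran the other way, from 7.40 in EpiSC to 7.08 in ELA-EpiSC, at a mean below the minimum. Its difference was -0.33, which became 0.21 with spike-ins set equal. Of 7 macrophage markers 6 were detected, all but Lyz2, with a mean level of 8.69 and 8.89, and 0 of 3 at the minimum were past 1. These 3 were far above the lowest detected signals: Itgam read 12.72 and 13.09 (0.37, with another probe at -0.38), Cd68 10.03 and 10.55 (0.52), and Csf1r 9.55 and 9.58 (0.03, with another probe at -0.36). Ptprc, the pan-leukocyte CD45, stood at 6.48 and 6.60 and Emr1, a macrophage surface receptor, at 6.49 and 6.34, near the lowest detected signals of 5.89 and 6.11. The part of other cell types in the member values was not tested.

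The 8 epiblast and pluripotency markers were detected on both arrays. Pou5f1 read 14.27 in EpiSC and 14.46 in ELA-EpiSC, and Fgf5, which marks the primed epiblast, 15.19 and 15.34. Sox2 read 10.48 and 10.21, a difference of -0.27 that became 0.26 with spike-ins set equal. Over the other ways of processing, the difference of Fgf5 ran from -0.20 to 0.69, so its direction depends on the processing. Dnmt3b read 17.07 and 16.24, a difference of -0.84 and the lowest of this list. Of 8 epiblast and pluripotency markers 1 was past 1, Zic2 (1.68), with a mean level of 13.76 and 13.99 over the list. Markers of visceral and parietal endoderm had a mean level of 9.93 in EpiSC and 9.003 in ELA-EpiSC. Of 6 at the minimum, 2 were past 1 in EpiSC (Ttr and Amn) and 0 in ELA-EpiSC, beside 4.46% and 4.54% of all genes. Below the minimum, Thbd differed by 1.53 and Apoa1 by -2.02. Foxa2 read 14.67 in EpiSC and 14.22 in ELA-EpiSC, and Sox17 13.58 and 12.65. The difference of Foxa2, -0.44, became 0.09 with spike-ins set equal, while that of Sox17 stayed below 0. Of 6 trophoblast markers at the minimum, 1 was past 1 in ELA-EpiSC and 2 in EpiSC. Of the 6 surface epithelium markers at the minimum only Krt19 (1.32) was past 1, and of the endothelial markers only Kdr reached the minimum, at -0.43 on its brighter probe and 1.49 on the other, so that its direction depends on the probe, and it was 0.10 with spike-ins set equal.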

How the data were processed

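Groups were taken from sample titles. Per the file headers, the deposited scanner files hold linear spot intensity (mean and median pixel brightness with local background, a processed signal and quality flags) from Agilent Feature Extraction 10.7.3.1, while the submitters' processing notes name version 9.1. Both arrays shared 1 slide and scan. The authors also deposited log2 values per probe, background-corrected and quantile normalized with limma, with method and offset not stated, which served as an alternative.

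Mean signal was corrected by normexp (offset 50, on all spots) in limma 3.58.1 and R 4.3.3. Control and outlier spots (158 and 117) were dropped and the arrays quantile normalized, which hides a shift shared by all genes. Detected probes had a share of 0.5 or more of their spots flagged well above background. A gene took its brightest detected probe. Minimum (7.5) and thresholds (1 and 2.5) are sizes taken from the study's methods. There 7.5 and 1 were used with a limit on the corrected p-value for ES against ELA cells. The size of 2.5 served there for comparing more distant stages of differentiation. No p-value limit could be applied here. Tables and promoter letters were made in Python 3.11.15. The normalization was tried on a simulated pair made from the EpiSC array, with known shifts put on bright spots. That trial covered neither dim probes nor a shift shared by all genes. All 10 members and their probes were named. Of other families, partners and chromosome 3 neighbours those past 1 were named. A few more (Anxa4, Anxa7, Anxa11, S100a2, S100a5, S100a13, S100a16, Lgals9, Lgalsl, Cacybp, Myh9, Pdcd6 and markers) were chosen after their values were seen. The members and lists were chosen with earlier results of these data known.

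Of the 12 member probes, all carry a RefSeq accession with the same symbol in GRCm38.p6, and 0 share a run of 20 bases with a probe of another name. Whether probes lie in exons or UTRs was not analysed here. The number of arrays, 1 per group, limits the precision.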

Additional observations from a re-analysis of the deposited data

How the results depend on the processing

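No paired analysis was possible because 1 array stands for each group. For the 9 members past 1, the direction and the side of 1 held under all 14 ways of computing the values; Lgals3 ran from 3.35 to 3.94, S100a6 from 2.88 to 3.66, Anxa3 from 2.80 to 3.36, Anxa1 from 2.69 to 3.25, Anxa5 from 1.64 to 2.24, Anxa2 from 1.47 to 2.20, S100a4 from 1.497 to 2.10, S100a11 from 1.34 to 1.91 and Lgals1 from 1.13 to 1.86. The choice of members fixed their direction, so its holding is no support. Changing the detection filter could not move these values, because all 12 member probes were well above background on both arrays. Setting spike-ins equal adds 0.54 to every difference, so it could not bring a member below 1. Averaging probes could move only Anxa1 and S100a4, each read by 2 probes. The median member difference of 1.69 became 1.57 with scaling to the 75th percentile, 1.80 with scaling to the median, 1.81 with the processed signal and 2.22 with spike-ins set equal. These scalings move all genes: the median of all genes was -0.07, 0.15 and 0.54 with the 75th percentile, the median and spike-ins. The 756 genes past 1 in ELA-EpiSC became 2496 with spike-ins set equal, and the 742 in EpiSC 306; with scaling to the median they were 1114 and 516. A 1.5-fold limit gave 1846 and 1823, a limit of 2.5 gave 67 and 108, with 4 members in place of 9, and a minimum of 9 gave 527 and 481, with 8 members in place of 9, since S100a4 (mean 8.41) falls below it. Signs changed for Anxa4 (0.25) and Lgalsl (0.12) with spike-ins, and for S100a13 with scaling to the median (0.049) and with spike-ins (0.36). The lowest detected signals were 5.89 (EpiSC) and 6.11 (ELA-EpiSC), and S100a4 read 7.63 in EpiSC.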
